A study of Homo sapiens with 2 samples.

Results

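The genes described here encode the cytosolic translation initiation factors (EIF genes), the elongation factors (EEF genes) and a few of their regulators. They were chosen by name alone: every gene whose symbol starts with EIF or EEF and a digit, leaving out the eIF2 kinases (EIF2AK genes) and Y-linked copies. The rule found 56 of the 18132 genes measured, with 186 probe sets. It reads no measured value, but it was set with earlier results of these data known. The data were 2 PrimeView arrays, human gene expression arrays from Affymetrix, that measured mRNAs co-precipitated with QKI, an RNA-binding protein of the STAR family, from SW480, a colorectal cancer cell line. The siLnc array came from SW480 cells in which the lncRNA NONHSAT136151 was silenced by siRNA, and the siNC array from SW480 cells given negative control siRNA. The study's list of siRNAs gives the same sequence for the negative control and for 1 of its siRNAs against the lncRNA, and neither the labels nor the methods state which siRNA the siLnc array's cells received. Both cultures shared the line, 100 pmol of siRNA, the same lipid transfection reagent, collection at 48 hours and an anti-QKI antibody. There was 1 array per condition, so no spread between replicates could be measured, no p-value is given, and every difference below compares 2 arrays and not 2 conditions. All values are log2 signals, every difference is siLnc minus siNC, and the value of a gene is the mean over its probe sets.

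Translation starts when eIF2 carries the initiator tRNA to the small ribosomal subunit, which eIF3 also binds. The eIF4 factors bring this subunit to the capped end of the mRNA, and eIF1, eIF1A and eIF5 control the choice of start codon. eIF2B then recharges eIF2 with GTP, the step that stress kinases block by phosphorylating eIF2. In elongation, eEF1A delivers aminoacyl-tRNA, the eEF1B subunits recharge eEF1A, eEF2 moves the ribosome along by a codon, and eIF5A relieves stalls. Many elongation factor mRNAs, like those of ribosomal proteins, begin with a C and a run of pyrimidines (the 5′ terminal oligopyrimidine, or 5′TOP, motif), through which growth signals control their translation.

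A precipitate alone does not separate how much of an mRNA QKI held from how much of it the cells contained, and IgG and input RNA were not analysed here. Fewer cells and less RNA per cell cannot be told apart either. The silencing itself could not be checked, since no probe set was named for NONHSAT136151. The median signal was 3.29 on the siLnc array and 3.32 on the siNC array, and the sorted values of both arrays differed by at most 0.19. Of the markers of intestinal epithelium, KRT18 (11.73 in siLnc, 11.63 in siNC), KRT19, EPCAM and KRT8 were bright. In contrast, VIL1 and CDX1 lay below the background level of 4.68 and CDX2 differed by -0.95. CDH1 also averaged below that level, at 3.875 in siLnc and 3.84 in siNC. Its brightest probe set had 5.95 in siLnc and 5.88 in siNC. That background level is the 95% point, on the siNC array, of 124 probe sets of 43 genes of cell types that the culture lacks. Of 26 genes of glands, airway lining and blood, a list taken from earlier results of these data, 12 were at least 2-fold higher in siLnc, with a range of 1.29 to 10.09 in siLnc and 1.55 to 5.64 in siNC. Their summed signal was 11.26 in siLnc and 8.06 in siNC on the log2 scale. All 18 hybridization control probe sets were lower in siLnc, by 0.2 to 1.3. The 5′ and 3′ control probe sets of GAPDH differed by 0.47 and 0.19, and those of ACTB by 0.34 and 0.05. The part of these array-wide differences in the values below was not tested.

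Of the 56 genes, 1 was at least 2-fold higher in siLnc (EIF2B3) and 0 were at least 2-fold lower, beside 0.651% of all genes higher and 0.121% lower. At 1.5-fold, 6 genes were higher (EIF2B3, EIF2B4, EIF4H, EIF2S1, EIF4A3 and EIF3B) and 1 was lower (EEF1A2), beside 4.26% and 1.75% of all genes. In total 33 of the 56 genes (58.9%) lay above 0 and 22 lay below it, with a median of 0.045, against 39.2% above 0 and a median of -0.06 over all genes. By probe set, 3 of 186 were at least 2-fold higher and 0 lower, beside 1.51% and 0.185% of all probe sets, and 31 were 1.5-fold higher and 3 lower, beside 7.23% and 2.58%. In total 92 translation factor probe sets (49.5%) lay above 0, beside 41.1%. Much of the whole array was dim, and over probe sets at or above background the order of the shares turned round. There, 29 of 52 translation factor genes (55.8%) lay above 0 with a median of 0.05, against 60.4% of 8645 genes and a median of 0.11. Among them 1 was at least 2-fold higher and 0 lower, beside 2.05% and 0.382% of those genes, and 8 were 1.5-fold higher and 1 lower, beside 12% and 2.96%. As a whole the translation factors therefore stayed close to the other genes of the arrays, and the description below concerns how they differed among themselves.

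**Figure D1:**
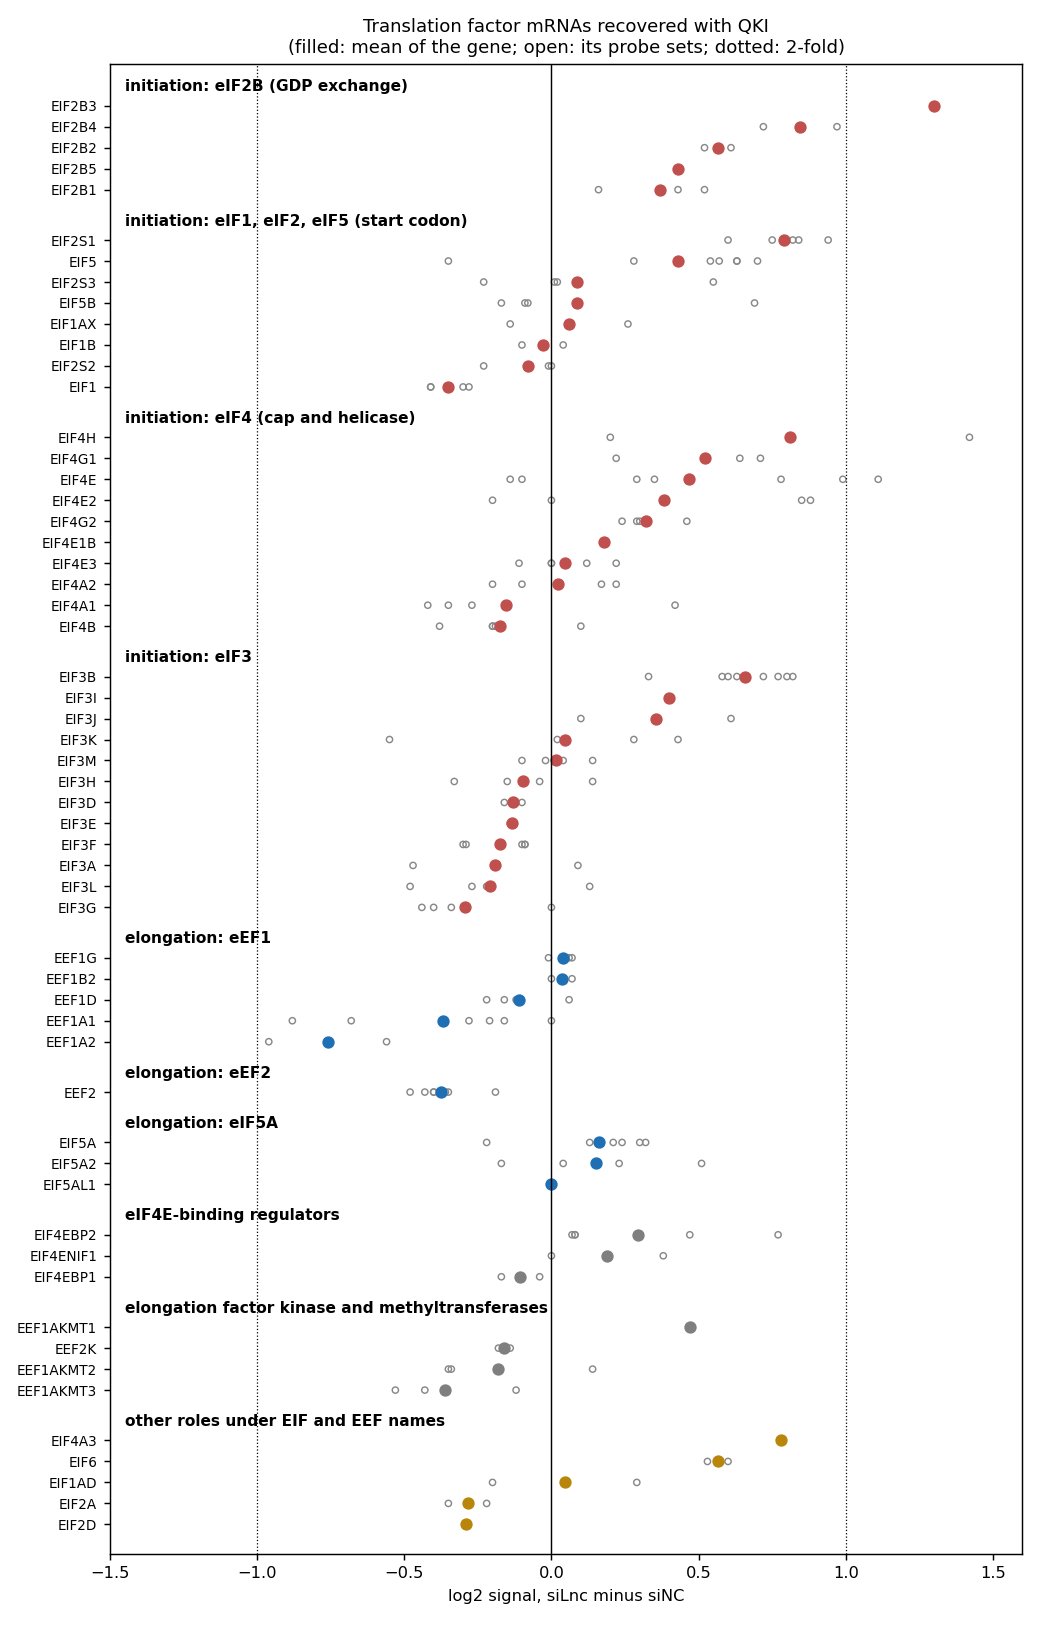
Log2 signal difference, siLnc minus siNC, of each of the 56 genes (filled points) and of its single probe sets (open points), grouped by role, with dotted lines at 2-fold. All 5 eIF2B subunits lie to the right of 0, with EIF2B3 at 1.30, while EEF2, EEF1A1, EEF1A2 and most eIF3 subunits lie to its left.

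Over all their probe sets, the initiation factors and the elongation factors had close medians. They were 0.09 over 35 initiation genes, 23 of them above 0 (65.7%), and 0.00 over 9 elongation genes, 4 of them above 0 (44.4%). Of all genes 39.2% lay above 0. The difference of the medians was 0.09 with these roles. It was 0.33 when eIF5A, which was once named as an initiation factor but acts in elongation, was left out, and 0.26 when genes were split by name alone into 46 EIF and 10 EEF genes. Quantile normalization brought the difference with these roles down to 0.01. The elongation median of 0.00 was the value of EIF5AL1, which was below background on both arrays. Over probe sets at or above background, the medians were 0.19 over 32 initiation genes and -0.07 over 8 elongation genes. The difference was then 0.26. On that footing 19 of the 32 initiation genes (59.4%) and 4 of the 8 elongation genes (50%) lay above 0, beside 60.4% of all genes with such probe sets. By name, and with all probe sets, 30 of 46 EIF genes lay above 0 (65.2%, median 0.09) and 3 of 10 EEF genes did (30%, median -0.17), beside 39.2% of all genes. The 6 subunits of eEF1 and eEF2 had a median of -0.24, with 2 of 6 above 0. None of these differences between groups could be tested with 1 array per condition.

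The 5 subunits of eIF2B, the complex that exchanges GDP for GTP on eIF2, were all higher in siLnc, with a median of 0.565. EIF2B3, which encodes the gamma subunit of the catalytic part, had 6.28 in siLnc and 4.98 in siNC, a difference of 1.30 or 2.46-fold. It rested on a single probe set and remained at least 2-fold higher with each normalization and filter tried, at 1.19 after cyclic loess and 1.14 after quantile normalization. EIF2B5, the epsilon subunit that carries the exchange activity itself, had 7.06 in siLnc and 6.63 in siNC, a difference of 0.43, also from 1 probe set. Both genes of the catalytic part were thus higher in siLnc, EIF2B3 by the wider margin.

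The other 3 subunits form the regulatory part, which senses phosphorylated eIF2. EIF2B4 (delta) had 7.22 in siLnc and 6.38 in siNC, and its pair of probe sets differed by 0.97 (6.79 in siLnc, 5.82 in siNC) and 0.72 (7.65 in siLnc, 6.93 in siNC). EIF2B2 (beta) averaged 7.66 in siLnc and 7.09 in siNC, with probe sets at 0.61 and 0.52. EIF2B1 (alpha) averaged 6.24 in siLnc and 5.87 in siNC, with 3 probe sets between 0.16 and 0.52. No probe set of any eIF2B subunit was lower in siLnc. The smallest difference, 0.16, belonged to the brightest EIF2B1 probe set, at 7.73 in siLnc and 7.57 in siNC.

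Among eIF2 itself and the factors that choose the start codon, the 8 genes spread to both sides, from -0.35 to 0.79, with a median of 0.07. That median has no settled sign, since cyclic loess made it -0.06, quantile normalization -0.04 and the brightest probe set of each gene -0.12. EIF2S1, the alpha subunit that the stress kinases phosphorylate, was highest at 6.03 in siLnc and 5.24 in siNC, a difference of 0.79. All 5 of its probe sets were higher in siLnc, between 0.60 and 0.94, the brightest at 7.80 in siLnc and 6.98 in siNC. The beta subunit EIF2S2 (-0.08) and the gamma subunit EIF2S3 (0.09), which binds GTP and the initiator tRNA, did not share this difference. The 4 probe sets of EIF2S3 ran from -0.23 to 0.55.

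EIF5, which triggers GTP hydrolysis by eIF2, had 7.23 in siLnc and 6.80 in siNC, a difference of 0.43. Its 6 probe sets above background were all higher in siLnc, between 0.28 and 0.70, and the only one below 0 (-0.35) was dim, at 3.23 in siLnc and 3.58 in siNC. EIF1, which holds the scanning ribosome open until a start codon is met, stood on the other side, at 10.81 in siLnc and 11.16 in siNC. Its 4 probe sets, all bright, differed by -0.41, -0.41, -0.30 and -0.28. EIF1 was thus the initiation factor with the lowest gene mean over all probe sets. Over probe sets at or above background EIF3G was lower, at -0.39 beside -0.35 for EIF1. The close copy EIF1B (-0.03), EIF1AX (0.06) and EIF5B, which joins the large subunit (0.09), lay near 0, although 1 probe set of EIF5B reached 0.69.

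**Figure D2:**
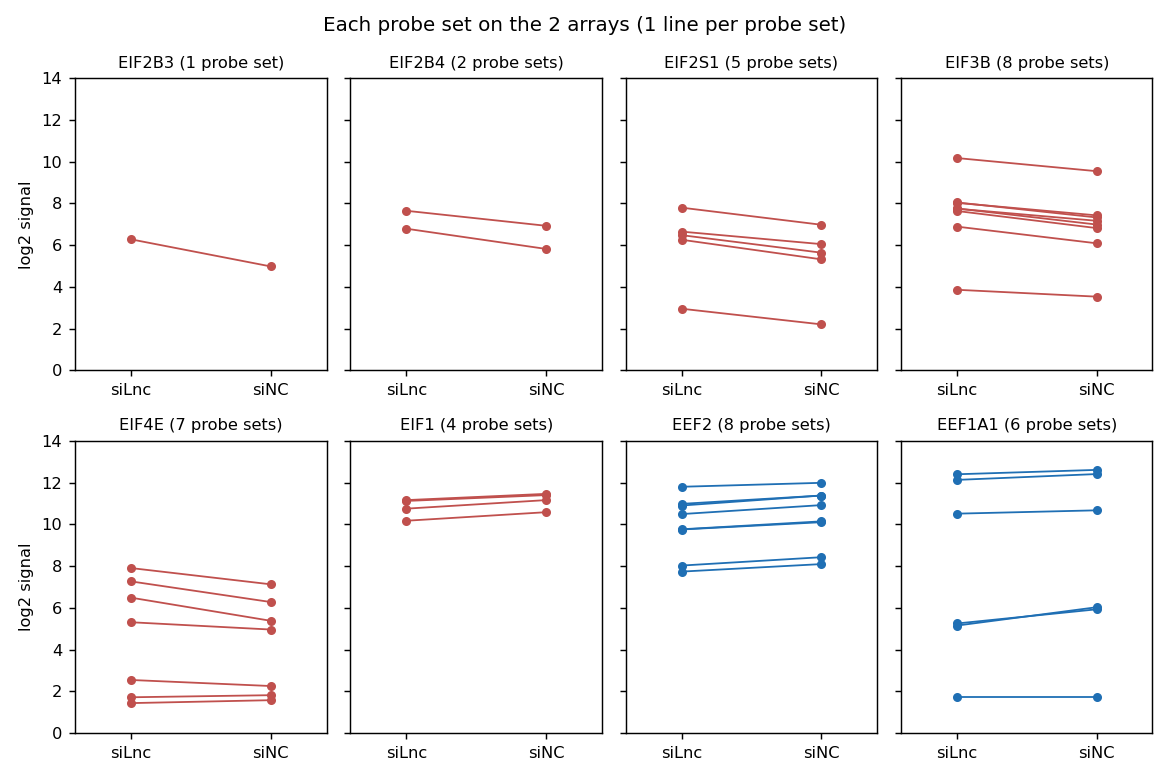
Log2 signal of every probe set of 8 genes on the siLnc array (left) and the siNC array (right), 1 line per probe set. Lines slope down to siNC for EIF2B3, EIF2B4, EIF2S1 and EIF3B at each probe set, and for the 4 brighter probe sets of EIF4E. They slope up to siNC for all probe sets of EIF1 and EEF2 and for 5 of 6 of EEF1A1.

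The eIF4 factors bind the cap, bridge it to the ribosome and unwind the leader, and 8 of their 10 genes lay above 0, with a median of 0.25. Of the 10 genes, 7 had probe sets at or above background, and over those probe sets the median was 0.52. There, 5 of the 7 genes lay above 0 (71.4%), beside 60.4% of all genes with such probe sets. EIF4G1, the scaffold of the cap complex, had 6.47 in siLnc and 5.95 in siNC, with 3 probe sets at 0.71, 0.64 and 0.22. EIF4G2, a relative of EIF4G1 that lacks the part that binds eIF4E, had 10.43 in siLnc and 10.10 in siNC, and its 4 bright probe sets were all higher, between 0.24 and 0.46. The scaffolds were therefore higher in siLnc at every probe set.

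EIF4E, the cap-binding protein, averaged 4.67 in siLnc and 4.20 in siNC over 7 probe sets that differed widely, from -0.14 to 1.11. Of these, 3 were below background on both arrays. The other 4 were all higher in siLnc, by 1.11 (6.49 in siLnc, 5.38 in siNC), 0.99 (7.27 in siLnc, 6.28 in siNC), 0.78 (7.91 in siLnc, 7.13 in siNC) and 0.35 (5.31 in siLnc, 4.96 in siNC), with a mean of 0.81. All 4 are of the kinds marked _s_at or _x_at, which may read several transcripts or genes, and without them EIF4E came to -0.12 from dim probe sets alone. EIF4E2, a cap-binding relative that represses translation, had the same split. Its bright pair differed by 0.88 (7.02 in siLnc, 6.14 in siNC) and 0.85 (7.66 in siLnc, 6.81 in siNC), and its dim pair by 0.00 and -0.20. EIF4E3 (0.05 over 5 probe sets) and EIF4E1B (0.18 from 1 probe set) were below background on both arrays.

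EIF4H, which stimulates the eIF4A helicase, averaged 8.86 in siLnc and 8.05 in siNC, a difference of 0.81 made of unequal parts. One probe set differed by 1.42 (6.64 in siLnc, 5.22 in siNC) and the much brighter one, an _s_at, by 0.20 (11.08 in siLnc, 10.88 in siNC). EIF4B, which has the same task, was at -0.17, with 8.11 in siLnc and 8.28 in siNC, and 4 of its 5 probe sets were lower in siLnc. The helicase EIF4A2 lay at 0.02. Its 2 probe sets above background were lower in siLnc, by -0.20 and -0.10, and its dim ones higher, by 0.17 and 0.22. For the helicase EIF4A1, the mean of -0.155 came from 4 probe sets below background on both arrays. The 3 bright probe sets that also carry the name of the readthrough gene SENP3-EIF4A1 averaged 11.31 in siLnc and 10.93 in siNC, and differed by 0.20 to 0.47. Across these genes, 3 of the 56 had any probe set at least 2-fold higher (EIF2B3, EIF4E and EIF4H) and 0 had one 2-fold lower, beside 2.84% and 0.386% of all genes.

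The largest initiation factor, eIF3, had 12 measured subunit genes, of which 5 lay above 0 and 7 below, with a median of -0.11. Most were within 0.3 of 0, and EIF3B stood apart. This core subunit, on which eIF3 assembles, had 7.52 in siLnc and 6.86 in siNC, and all 8 of its probe sets were higher in siLnc, between 0.33 and 0.82. The brightest had 10.18 in siLnc and 9.55 in siNC. EIF3I, which binds EIF3B directly, had 9.17 in siLnc and 8.77 in siNC from 1 probe set (0.40), and EIF3J, a loosely held subunit, 7.20 in siLnc and 6.84 in siNC (0.355, from probe sets at 0.61 and 0.10).

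EIF3G, which binds EIF3B and EIF3I in the same module, went the other way, with 6.39 in siLnc and 6.69 in siNC. Its 3 probe sets above background differed by -0.44, -0.40 and -0.34. EIF3E, a bright subunit gene, had 9.91 in siLnc and 10.04 in siNC (-0.135). EIF3L had 9.03 in siLnc and 9.24 in siNC, with 3 of 4 probe sets lower in siLnc. EIF3F was at -0.30 and -0.29 in its bright probe sets, which had 10.55 and 10.82 in siLnc and 10.85 and 11.11 in siNC, while its 3 other probe sets were below background. The subunits EIF3A, EIF3D and EIF3H lay between -0.19 and -0.095, and EIF3M (0.015) and EIF3K (0.045, with probe sets from -0.55 to 0.43) had no side that held across normalizations. EIF3C could not be separated from its copy EIF3CL: their 5 shared probe sets differed by -0.28 to -0.03.

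Of the elongation factors, eEF2 was lower in siLnc at every probe set. EEF2, the translocase, averaged 9.94 in siLnc and 10.31 in siNC, a difference of -0.37, and all 8 of its probe sets were lower in siLnc, between -0.48 and -0.19. The brightest of them differed by -0.19. EEF1A1, the main carrier of aminoacyl-tRNA, averaged 7.86 in siLnc and 8.23 in siNC, also a difference of -0.37, but with probe sets from -0.88 to 0.00. Its 3 bright probe sets, all marked _x_at, differed by only -0.28, -0.21 and -0.16, and 1 more that it shares with its pseudogene EEF1A1P5 had 12.44 in siLnc and 12.43 in siNC. The wider differences came from dimmer probe sets at 5.15 in siLnc and 6.03 in siNC and at 5.25 in siLnc and 5.93 in siNC. The EEF1A1 value thus depended on which probe sets were read.

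EEF1A2, the form of eEF1A known from muscle and nerve, had the lowest difference of all 56 genes. It averaged 4.92 in siLnc and 5.68 in siNC, a difference of -0.76. Its probe sets had 4.67 and 5.16 in siLnc and 5.63 and 5.72 in siNC. The value of 4.67, in the probe set with the wider difference (-0.96), lay just under the background level. The subunits that recharge eEF1A lay near 0, with EEF1G at 11.50 in siLnc and 11.46 in siNC, EEF1B2 at 11.44 in siLnc and 11.40 in siNC, and EEF1D at -0.11. Cyclic loess and quantile normalization both put EEF1G and EEF1B2 just below 0. EIF5A, which carries the modified amino acid hypusine and helps ribosomes through stretches of proline, had 8.96 in siLnc and 8.80 in siNC. Its 5 bright probe sets, all marked _x_at, were higher in siLnc by 0.13 to 0.32. Its relative EIF5A2 differed by 0.15, with probe sets from -0.17 to 0.51, and EIF5AL1, read by 1 probe set, was below background, with the same signal on both arrays.

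The regulators of both steps lay between -0.36 and 0.47. EIF4EBP1, which blocks eIF4E when mTOR is inactive, had 8.37 in siLnc and 8.47 in siNC, and its relative EIF4EBP2 5.80 in siLnc and 5.51 in siNC, with all 5 probe sets above 0, from 0.07 to 0.77. EIF4ENIF1, which carries eIF4E into the nucleus, had 4.98 in siLnc and 4.79 in siNC. EEF2K, the kinase that inactivates eEF2, had 4.77 in siLnc and 4.93 in siNC (-0.16). Of the enzymes that methylate eEF1A, EEF1AKMT1 had 5.78 in siLnc and 5.31 in siNC (0.47, 1 probe set), EEF1AKMT3 3.89 in siLnc and 4.25 in siNC (-0.36), and EEF1AKMT2 differed by -0.18.

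The genes with an EIF name that were placed outside the initiation, elongation and regulator groups held some of the wider differences. EIF4A3, the helicase that anchors the exon junction complex on spliced mRNA, had 8.75 in siLnc and 7.97 in siNC, a difference of 0.78 from 1 probe set. EIF6, which keeps free large subunits from joining, had 8.41 in siLnc and 7.85 in siNC, with probe sets at 0.60 and 0.53. On the other side, EIF2D, a factor of ribosome recycling, differed by -0.29 (4.29 in siLnc, 4.58 in siNC) and EIF2A, an alternative carrier of initiator tRNA, by -0.285 (5.40 in siLnc, 5.69 in siNC). In each of them 1 probe set was bright and the other below background. EIF1AD lay at 0.045.

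**Figure D3:**
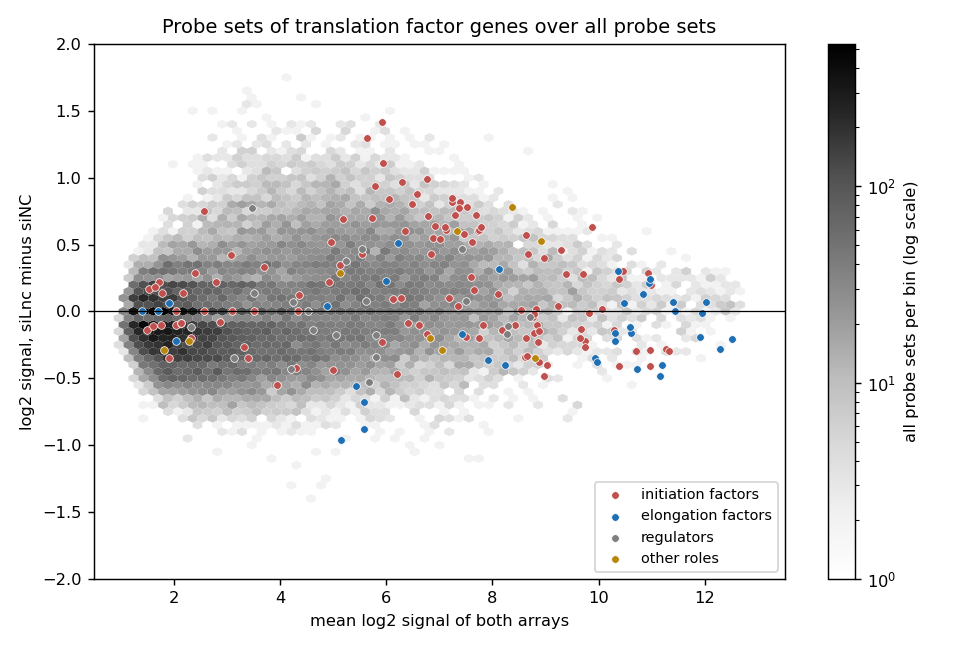
Log2 difference, siLnc minus siNC, of the 186 translation factor probe sets (coloured by class) against their mean log2 signal on both arrays, over the density of all 49292 probe sets in grey (log scale). Between signals of 6 and 8 many initiation factor probe sets lie above the bulk, and above a signal of 10 most points lie between -0.5 and 0.3.

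The differences were not the same at all signals. Below a mean signal of 5 the median over translation factor probe sets lay between -0.085 and 0.02 in each band, and between 5 and 6 it was 0.185 over 22 probe sets, against 0.12 over all probe sets of that signal. Between mean signals of 6 and 7 the median over 19 translation factor probe sets was 0.51, against 0.16 over all probe sets of that signal, and between 7 and 8 it was 0.56 over 28 probe sets, against 0.15. Between 8 and 9 it was -0.10 over 27 probe sets, against 0.09, and at 10 and above it was -0.14 over 31 probe sets, against 0.06. The probe sets of EIF2B2, EIF2B4 and EIF2B5 and 6 of the 8 of EIF3B lay in the bands from 6 to 8, and the 4 of EIF1 and 4 of the 8 of EEF2 at 10 and above. The single EIF2B3 probe set (6.28 in siLnc, 4.98 in siNC) and the EEF1A1 probe sets with the widest differences both fell between 5 and 6. Probe sets of 1 gene share its mRNA and are not independent points. The parts of signal and of role in the difference were not tested.

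The annotated start was then read for the 5′TOP motif, because the elongation factors are known for it. The letters searched were a C at the first transcribed base followed by at least 4 pyrimidines (C or T), on the transcript strand, in RefSeq promoter records of GRCh38.p14. Of 27305 promoters, 1104 (4.04%) had such a start, as did 668 of the 14425 measured genes with a record (4.63%). Of the 56 translation factor genes 45 had a record, and 11 of them (24.4%) had a pyrimidine start: EEF1A1, EEF2, EIF2A, EIF2D, EIF2S3, EIF3D, EIF3F, EIF3K, EIF3M, EIF4A2 and EIF4B. Of the ribosomal protein genes, 39 of 59 had one. The sequences below run from 10 bases before the annotated first base to its eighteenth, 5′ to 3′, and are shown for genes described above, picked after their values were seen. EIF2S3 (0.09, with a run) and EIF1 (-0.35, with none) are shown as exceptions to the order of the medians given next. Capitals mark the first base and, where there is one, the whole pyrimidine run that begins there. The first 6 have a run and the last 9 have none.
EEF2, chr19:3985446-3985473, minus strand: cgtcagcgttCTCTTCCgccgtcgtcgc
EEF1A1, chr6:73521015-73521042, minus strand: cgtgaacgttCTTTTTCgcaacgggttt
EIF4B, chr12:53006446-53006473, plus strand: tcatccgggtCTTTTgcgttctctttcc
EIF3F, chr11:7987327-7987354, plus strand: cttccgcctcCTTCTTTCTCgacaagat
EIF3D, chr22:36529149-36529176, minus strand: cgcatgtttcCTCTTTTCCTggtttctc
EIF2S3, chrX:24054946-24054973, plus strand: gatttccttcCTCTTTTggcaacatggc
EIF2B1, chr12:123633669-123633696, minus strand: gtacggaagtGcgccggaagtggggtgc
EIF2B2, chr14:75002911-75002938, plus strand: cgcccgccccGgaagtgcaaactgtgtg
EIF2B3, chr1:44986578-44986605, minus strand: gctgtcagtcAgaggcggcgtggagatc
EIF2B4, chr2:27370321-27370348, minus strand: tgaccacggcGggcggagcctaggactg
EIF2B5, chr3:184135348-184135375, plus strand: cagcttccttGcggaagtggtgaccgtg
EIF2S1, chr14:67360318-67360345, plus strand: gaggttccgcAtgcgcggtggagtgagc
EIF3B, chr7:2354817-2354844, plus strand: tcgcacgcacAtggctgggctgtagccg
EIF4E, chr4:98929116-98929143, minus strand: tggagcggttGtgcgatcagatcgatct
EIF1, chr17:41688875-41688902, plus strand: ccgcccctctGccccagtcactgagccg

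The 11 translation factor genes with a pyrimidine start had a median difference of -0.17, with 4 above 0 and a range of -0.37 to 0.09. The 34 with another start had a median of 0.31, with 28 above 0. Translation factor genes without a promoter record fell outside this split, and most of them were lower in siLnc. EEF1A2 (-0.76), EEF1AKMT3 (-0.36), EIF3G, EIF3L, EIF3A, EIF3E, EEF1D, EIF4EBP1, EIF3H and EIF2S2 (-0.08) lay below 0, and only EEF1AKMT1 (0.47) above it. Over all genes the same split gave -0.06 with a pyrimidine start (39.7% above 0) and -0.05 with another (41.2% above 0). With probe sets at or above background, the medians were -0.17 (2 of 11 above 0) and 0.375 (26 of 30) for translation factors. Over all genes they were then 0.03 (423 genes, 53% above 0) and 0.13 (6832 genes, 62% above 0). Among initiation factors alone, with all probe sets, the medians were 0.015 for 7 genes with a pyrimidine start and 0.39 for 22 with another. The ranges overlapped, since EIF1, with no such run, was at -0.35.

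**Figure D4:**
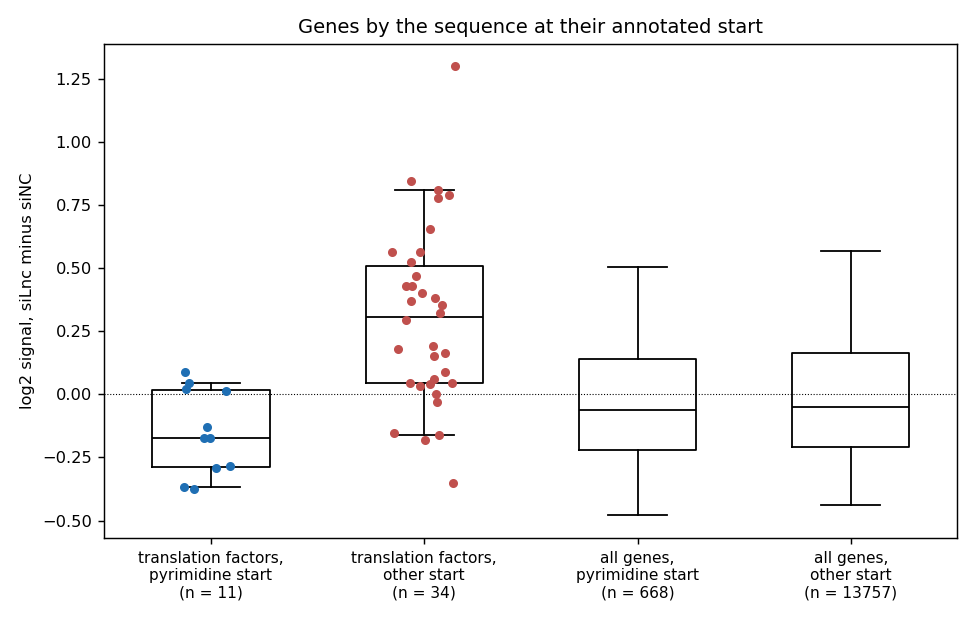
Log2 difference, siLnc minus siNC, of translation factor genes with a pyrimidine start (n = 11) or another start (n = 34), each gene a point, beside boxes of all measured genes split the same way (n = 668 and 13757). Boxes give the median and quartiles and whiskers the 5% and 95% points. The medians stand at -0.17 and 0.31 for translation factors and at -0.06 and -0.05 for all genes.

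This contrast depended on the annotated base. When the run could begin within 3 bases of the annotated start, 15 genes qualified, EIF3J, EIF4E2, EIF4G2 and EIF4EBP2 among them, and their median was 0.015 with 8 above 0. The other 30 then had a median of 0.185 with 24 above 0, so the gap between the medians was narrower than with the exact start. The 9 translation factor mRNAs long known as 5′TOP mRNAs (EEF1A1, EEF1B2, EEF1D, EEF1G, EEF2, EIF3E, EIF3F, EIF3H and EIF4B) had a median of -0.135 with 2 of 9 above 0, and the other 47 genes a median of 0.09 with 31 above 0. EEF1B2 and EEF1G, which are in that list, had no pyrimidine at the annotated first base. The ribosomal protein genes, the largest family with this motif, had a median of -0.015 over 71 genes with 33 above 0 (46.5%). Over all genes the median was -0.06 with 39.2% above 0. With probe sets at or above background it was 0.018 over 67 ribosomal protein genes with 36 above 0 (53.7%), beside 0.11 and 60.4% for all genes.

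Among the other genes of translation, 0 genes of 5 lists reached 2-fold on the mean of their probe sets. Over all genes the shares were 0.651% higher and 0.121% lower, and 39.2% lay above 0. Of genes with probe sets at or above background, 60.4% lay above 0. Single probe sets were at least 2-fold higher in DDX3X (up to 1.49), ABCE1 (up to 1.16), GFM1 (up to 1.07) and DENR (up to 1.03). Of all genes, 2.84% had such a probe set. The kinases and phosphatase subunits that act on eIF2 had a median of 0.03 over 6 genes. EIF2AK1, the heme-regulated eIF2 kinase, had 7.53 in siLnc and 8.11 in siNC (-0.58), and EIF2AK2, the kinase activated by double-stranded RNA, 5.96 in siLnc and 5.52 in siNC (0.44). Termination, recycling and release factors had 8 of 9 genes above 0 and a median of 0.25, with ABCE1, which splits the ribosome, at 5.74 in siLnc and 4.95 in siNC and DENR, a recycling factor, at 6.82 in siLnc and 6.11 in siNC. In the list of cap complex partners and the mTOR arm, the median was -0.02 and 6 of 14 genes were above 0, and the widest differences were those of the helicases DDX3X (5.11 in siLnc, 4.22 in siNC) and DHX29 (4.54 in siLnc, 3.78 in siNC, below background). The enzymes that make diphthamide on eEF2 and hypusine on eIF5A had a median of -0.05 over 7 genes, with DPH3 at 0.355 and DHPS at -0.26. Mitochondrial translation factors had a median of 0.05 over 8 genes, with the elongation factors GFM1 (6.49 in siLnc, 5.70 in siNC) and TSFM (0.41) highest. The 19 aminoacyl-tRNA synthetase genes had a median of 0.13 with 12 above 0 (63.2%), beside 39.2% of all genes. Over probe sets at or above background 14 of the 19 lay above 0 (73.7%), beside 60.4%.

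**Figure D5:**
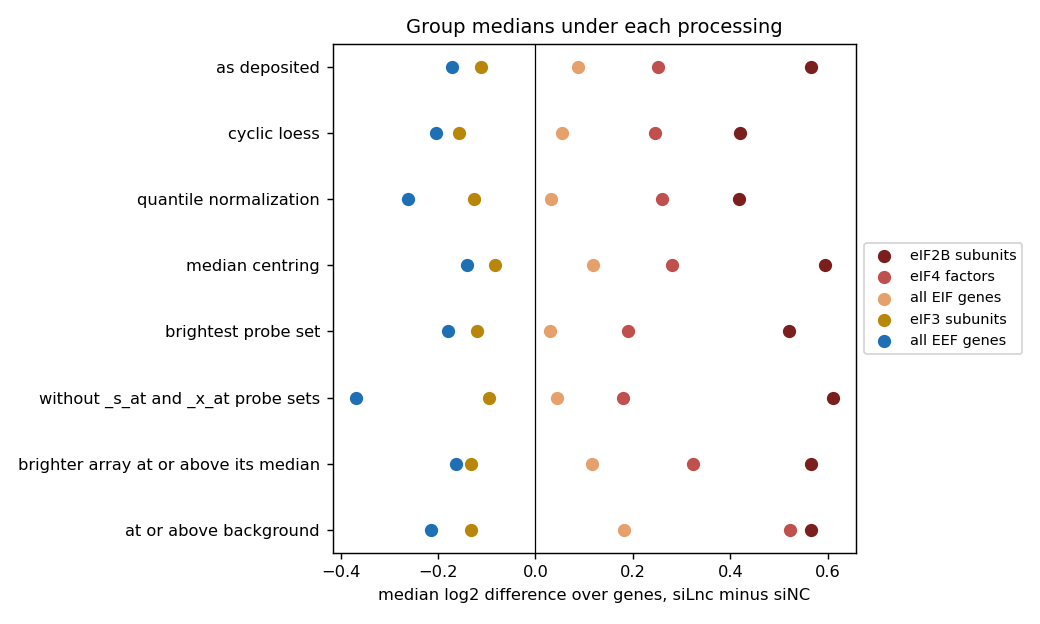
Median log2 difference, siLnc minus siNC, over the genes of 5 groups (colours) under each processing of the same 2 arrays (rows). The eIF2B median stays between 0.42 and 0.61 and the eIF4 median between 0.18 and 0.52, the medians of all EIF genes between 0.03 and 0.18, and those of eIF3 and of all EEF genes below 0.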

How the data were processed

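RNA co-precipitated with QKI from SW480 cells was measured on 1 PrimeView array per condition. The values deposited by the authors were log2 signals to 2 decimals. GCOS is named in the submitters' processing notes. How background was corrected, probes were summarised and arrays were scaled, and the genome build, were not given in the sources used here. Groups followed the sample labels.

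Of 49292 probe sets other than 79 controls, 44988 carried 1 symbol in the platform annotation and gave 18132 genes. Another 24 that name a member among several symbols were left out of gene values. All 56 members matched a RefSeq gene identifier, and 0 symbols changed. The log2 siNC signal was subtracted from the siLnc signal, averaged over probe sets and counted at 2-fold. The difference had a robust SD of 0.326 across probe sets, real and technical differences together. The number of arrays limits the precision.

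Every member was placed by role. Values were given for genes at least 2-fold different in the mean or any probe set, for the 2 widest differences and the brightest gene of each role group, and for the 2 widest of other lists. Further genes were named after their values were seen. Members, lists and rules were chosen with earlier results of these data known. The background level and the shifted start were added after seeing the data. The code was tested on simulated data. The alternative normalizations were run with limma 3.58.1 (R 4.3.3). All else ran in Python 3.11.15 (scipy 1.17.1, pandas 2.3.3, numpy 2.4.6).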

Additional observations from a re-analysis of the deposited data

How the results depend on the processing

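No paired analysis was possible because each condition had 1 array. With cyclic loess, quantile normalization or median centring, the brightest probe set of each gene, or either filter on dim probe sets, EIF2B3 remained the only translation factor gene at least 2-fold different. Without _s_at and _x_at probe sets there were 2, EIF2B3 and EIF4H. At 1.5-fold there were 7 and at 3-fold 0. The median of eIF1, eIF2 and eIF5 genes, 0.07 as deposited, came to -0.0626 with cyclic loess, -0.0425 with quantile normalization, -0.12 with the brightest probe set and -0.005 without _s_at and _x_at probe sets. The median of genes with a pyrimidine start, -0.17, was 0.015 when the run could begin within 3 bases of the start, and that of the other genes, 0.31, was then 0.185. The cause was not tested. The medians of all EIF genes (0.03 to 0.18), all EEF genes (-0.37 to -0.14), eIF2B (0.42 to 0.61), eIF3 (-0.16 to -0.08), eIF4 (0.18 to 0.52) and the 5′TOP list (-0.17 to -0.095) kept their sign under all of these, as did initiation minus elongation (0.01 to 0.33). The setting without _s_at and _x_at probe sets had no value for EEF1AKMT1, EEF1B2, EEF1G, EEF2K, EIF3E, EIF3I and EIF4B. Medians of groups that hold these genes then rested on fewer genes. Single genes changed sign in 7 of 56 cases after cyclic loess, 8 after quantile normalization, 6 with the brightest probe set and 5 of 49 without _s_at and _x_at probe sets. Among the last was EIF4E, at 0.47 as deposited and -0.12 without them. Median centring changed the sign of 0 genes and either filter on dim probe sets that of 2 (EIF3M and EIF4A2). The gene means include 42 of 186 probe sets that lay below background on both arrays.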
